A study of Mus musculus with 2 samples.

Results

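The genes described here encode 4 subunits of the transcription factor NF-kB, namely Rel, Rela, Relb and Nfkb2, and 6 IkB proteins that bind NF-kB subunits, namely Nfkbia, Nfkbib, Nfkbie, Nfkbid, Nfkbiz and Bcl3. They were taken by name, and with every probe set of the array that is given to 1 of them and to no other gene. This made 10 of the 18194 genes named on the array, read by 19 probe sets. The study asked whether dying cells release factors that alter gene expression in macrophages. The first condition was BMDMs, macrophages grown for more than 7 days with M-CSF from the bone marrow of female C57BL/6J mice aged 8 weeks, that were kept for 1 hr with the supernatant of apoptotic W3 cells. W3 is a mouse T cell line that carries Fas, and it was given Fas ligand for 30 min and then left for 60 min in RPMI with 1% FCS. The second condition was BMDMs of the same description that were kept for 1 hr with medium, which the labels give as RPMI with 10% FCS. Supernatant and serum content therefore cannot be told apart, and supernatant of living W3 cells was not analysed here. Each condition is 1 array, no source states whether mice were pooled, and no ratio below has a replicate, an error or a p-value.

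NF-kB is a family of dimers that rest in the cytoplasm of an unstimulated cell, held there by IkB proteins. Signals such as bacterial ligands or inflammatory cytokines activate the IKK kinase, which marks the cytoplasmic IkB proteins for destruction, and the freed dimers enter the nucleus. Several IkB and subunit genes are themselves targets of NF-kB, so that macrophages rebuild the inhibitors within the first hours of a response, and Nfkbia is the textbook case of this feedback. A further group of IkB proteins, encoded by Nfkbid, Nfkbiz and Bcl3, acts in the nucleus on DNA-bound dimers, and can lower or raise the transcription of single target genes.

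Each probe set has a MAS5 signal, a linear intensity computed from its probes on the array. Signals under 38.4 were set to that floor, which is the higher of the 95th percentiles over 80 probe sets of odorant and pheromone receptors on each array. A gene was read by its probe set of highest mean signal, and was called higher or lower at a ratio of at least 2-fold. The median signal was 49.3 with the supernatant and 53.0 with medium, and 11977 genes exceeded the floor with the supernatant, with medium or with both. All 11 macrophage markers named on the array were above the floor, among them Csf1r (28572 with the supernatant and 30999 with medium). Mertk, a receptor for the uptake of dying cells, was the only one of them to reach 2-fold (2.23-fold higher). Of 14 T cell markers 10 were under the floor on both arrays, including Cd3d, Cd3e, Cd3g and Thy1. The other 4 differed in direction and none was called. Zap70 read 313 with the supernatant and 208 with medium, 1.51-fold higher. Cd28 (283 and 393), Cd5 (42.8 and 65.9) and Cd8a (20.7 and 72.9) were lower with the supernatant. The summed signal of the list was 754 with the supernatant and 885 with medium. The neutrophil, dendritic cell and stromal lists, most of whose defining markers (Mpo, Flt3 and Col1a1 among them) were under the floor or close to it, summed to 667, 197 and 130 with the supernatant, against 442, 126 and 65.0 with medium, and 0 of their genes were called higher or lower. From these lists S100a8 (462 with the supernatant and 391 with medium), S100a9 (73.0 and 5.85) and Batf3 (117 and 63.5) exceeded the floor on at least 1 array. Elane (51.8 and 9.89), Ngp (51.5 and 19.9), Siglech (39.6 and 3.53), Col1a2 (48.3 and 41.6) and Zbtb46 (23.5 and 45.7) did so by less. After flooring, S100a9 was 1.90-fold and Batf3 1.84-fold higher, just short of the threshold. Elane (1.35-fold), Ngp (1.34-fold), S100a8 (1.18-fold), Col1a2 (1.16-fold) and Siglech (1.03-fold) were also higher, and Zbtb46 was lower. The part of such other cell types in the ratios below was not tested. The array reads bulk RNA, so more mRNA per cell and more cells that hold the mRNA cannot be told apart.

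The DNA before the start of 4 of the genes is shown because these are the genes on which the comparison turns, the 3 that were called higher and Nfkbia, which was not. Each sequence is the 250 bases before a RefSeq transcript start (build GRCm38.p6), written along the gene's strand, and the capitals mark matches to the NF-kB consensus site, the kappaB motif, on either strand.
Rel (chr11:23770970-23771219, minus strand): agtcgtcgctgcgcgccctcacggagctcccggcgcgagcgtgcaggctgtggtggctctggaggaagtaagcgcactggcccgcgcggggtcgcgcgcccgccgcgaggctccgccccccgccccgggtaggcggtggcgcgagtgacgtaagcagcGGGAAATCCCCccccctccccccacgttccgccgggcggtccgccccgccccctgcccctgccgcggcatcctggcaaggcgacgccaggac
Nfkbie (chr17:45555450-45555699, plus strand): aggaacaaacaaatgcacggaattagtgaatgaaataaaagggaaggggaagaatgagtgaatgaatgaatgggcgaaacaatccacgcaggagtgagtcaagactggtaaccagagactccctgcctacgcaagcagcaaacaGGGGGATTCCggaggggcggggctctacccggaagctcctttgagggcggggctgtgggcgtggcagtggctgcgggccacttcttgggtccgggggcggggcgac
Nfkbid (chr7:30422156-30422405, plus strand): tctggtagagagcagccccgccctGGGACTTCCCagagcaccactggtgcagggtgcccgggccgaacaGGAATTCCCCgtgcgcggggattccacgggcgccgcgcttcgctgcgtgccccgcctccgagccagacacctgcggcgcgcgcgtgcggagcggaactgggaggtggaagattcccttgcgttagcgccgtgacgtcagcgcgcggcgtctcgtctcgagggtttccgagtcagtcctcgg
Nfkbia (chr12:55492648-55492897, minus strand): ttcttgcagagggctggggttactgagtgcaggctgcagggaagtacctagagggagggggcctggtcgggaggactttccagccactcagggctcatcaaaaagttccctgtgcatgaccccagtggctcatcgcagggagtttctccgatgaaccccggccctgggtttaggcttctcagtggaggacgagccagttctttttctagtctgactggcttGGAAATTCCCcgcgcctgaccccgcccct
In Rel the marked stretch holds 2 overlapping matches, the first of which begins 92 bases before the start, and in Nfkbie the match begins 106 bases before it. In Nfkbid the matches begin 226 and 181 bases before the start shown, and the windows of the other 2 starts listed for this gene hold none. In Nfkbia the match begins 29 bases before the start. The table of promoters covers 8 of the 10 genes. Over windows of 300 bases, 250 before and 50 after a start, 8 of the 12 windows of these genes held a kappaB match, against 8.46% of all 32851 windows. The other genes with a match were Nfkb2, in all 3 of its windows, which overlap in part, and Bcl3, while Rela and Nfkbib had none. The motif was therefore present in genes that were called higher and in genes that were not. TGACG, the core of the cAMP response element, was found on either strand in 5 of the 12 windows, which belong to Rel, Nfkbid, Nfkbib and Nfkb2, and in 20.8% of all windows. A match describes the letters in the window, and whether a factor binds there was not measured.

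Rel, Nfkbie and Nfkbid were the genes of the 10 with at least 2-fold more signal after 1 hr of apoptotic cell supernatant, 2.35-fold, 2.29-fold and 2.26-fold above medium. None of the other 7 genes reached 2-fold in either direction, and their ratios ran from 0.917 for Nfkbia to 1.44 for Nfkb2. The genes of 1 subunit, 1 cytoplasmic inhibitor and 1 nuclear IkB protein thus passed the threshold, and each of these groups also held genes that did not. A call of higher was given to 3 of these 10 genes, against 0.96% of all 11977 measured genes, and a call of lower to 0 of the 10, against 0.843%. These percentages stand for 115 genes called higher and 101 called lower. The counts were 137 and 66 after quantile normalization, and 131 and 69 after a loess correction. The median log2 ratio was 0.41 over the 10 genes and -0.02 over all measured genes. The genes were chosen with earlier results of these data known, so these counts describe them and are no test.

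**Figure D1:**
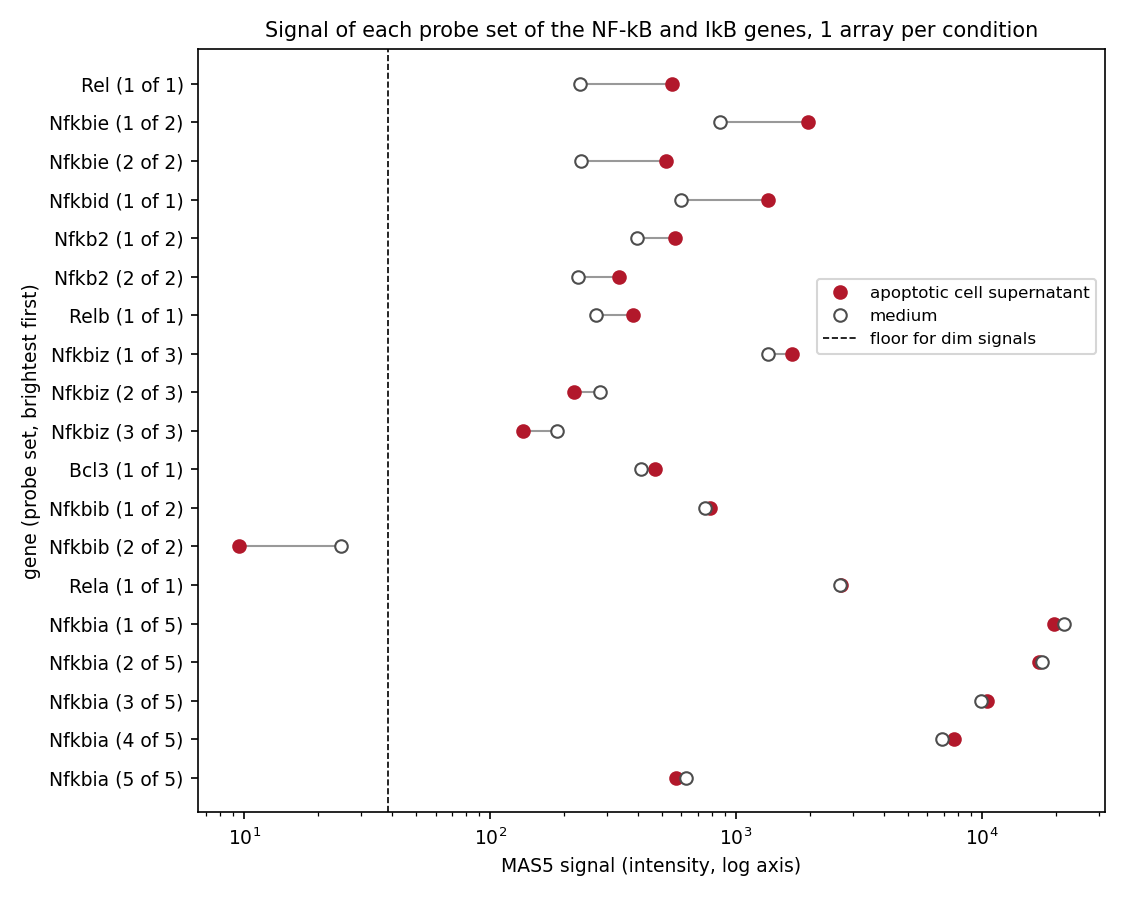
MAS5 signal (intensity, log axis) of each of the 19 probe sets with apoptotic cell supernatant (filled) and with medium (open), 1 array each, genes ordered by ratio. The dashed line stands at the floor, 38.4. The filled circles of Rel, Nfkbie and Nfkbid lie well to the right of the open ones (547 and 233 for Rel), those of Nfkbia lie close to them from the dimmest probe set to the brightest, and the second probe set of Nfkbib is under the floor on both arrays.

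The 4 subunits analysed here, which differ in how they activate transcription, all had ratios above 1. Rel encodes c-Rel, a subunit with a transactivation domain that is prominent in cells of the immune system. Its signal was 547 with the supernatant and 233 with medium, a difference of 314 and a ratio of 2.35 on its only probe set. Rela encodes the other widely studied transactivating subunit, the main partner in the classical dimer. Its signal was 2680 with the supernatant and 2637 with medium, a ratio of 1.02. Rel and Rela therefore differed by 1.21 in their log2 ratio, and both are subunits of the IKK-dependent classical branch.
Relb and Nfkb2 encode the pair that forms the dimer of the alternative branch, in which the Nfkb2 product is itself an inhibitor until it is processed. Relb read 382 with the supernatant and 270 with medium, 1.41-fold higher. Nfkb2 read 567 with the supernatant and 395 with medium, 1.44-fold higher, and its dimmer probe set read 333 and 229, 1.46-fold higher. The 3 probe sets of this pair gave nearly the same ratio, short of the threshold. Over all measured genes the 95th percentile of the log2 ratio was 0.50, and these genes stood at 0.50 for Relb and 0.52 for Nfkb2.

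The cytoplasmic inhibitors differed in ratio, with 1 of the 3 called higher. Nfkbie encodes IkB-epsilon, an inhibitor that is resynthesised after NF-kB activation. It read 1968 with the supernatant and 858 with medium on its brighter probe set, 2.29-fold higher. On the dimmer one it read 517 with the supernatant and 234 with medium, 2.21-fold higher. This is the only one of the 3 called genes with a second probe set, and both passed the threshold.
Nfkbia encodes IkB-alpha, the inhibitor with the fastest known feedback. It was the brightest of these genes and the only gene of the 10 with a ratio under 1 on its brightest probe set. Its 5 probe sets read 19679, 17014, 10506, 7677 and 570 with the supernatant, against 21460, 17559, 9920, 6865 and 625 with medium. The ratios were 0.917, 0.969, 1.06, 1.12 and 0.913 in the same order, so that 3 probe sets lay below 1 and 2 above it. The dimmest probe set gave nearly the ratio of the brightest. Among the 1475 single-gene probe sets with a mean signal of at least 5000, the log2 ratio had an SD of 0.13. The 4 Nfkbia probe sets among them lay between -0.12 and 0.16, and 6.31% of these bright probe sets had a lower ratio and 5.15% a higher one.
Nfkbib encodes IkB-beta, a slower inhibitor that is known to follow a stimulus less closely. It read 783 with the supernatant and 746 with medium, a ratio of 1.05. Its other probe set read 9.57 with the supernatant and 24.7 with medium, both under the floor, and gives no ratio. Nfkbie exceeded Nfkbia by 1.32 and Nfkbib by 1.13 in the log2 ratio.

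Of the genes of the nuclear IkB proteins, 1 passed the threshold. Nfkbid encodes IkB-NS, which is known in mouse macrophages to restrain some inflammatory genes. It read 1352 with the supernatant and 598 with medium, 2.26-fold higher, on its only probe set. Bcl3, which encodes a partner of NF-kB homodimers, read 467 with the supernatant and 412 with medium, a ratio of 1.13.
Nfkbiz encodes IkB-zeta, which is known as a coactivator of secondary response genes such as Il6. Its probe sets disagreed in direction. The brightest read 1689 with the supernatant and 1343 with medium, a ratio of 1.26. The other 2 read 219 and 136 with the supernatant, against 279 and 186 with medium, with ratios of 0.786 and 0.731. None of the 3 reached 2-fold, and the mean over them gave a log2 ratio of -0.16 in place of 0.33. No direction is given for Nfkbiz.

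**Figure D2:**
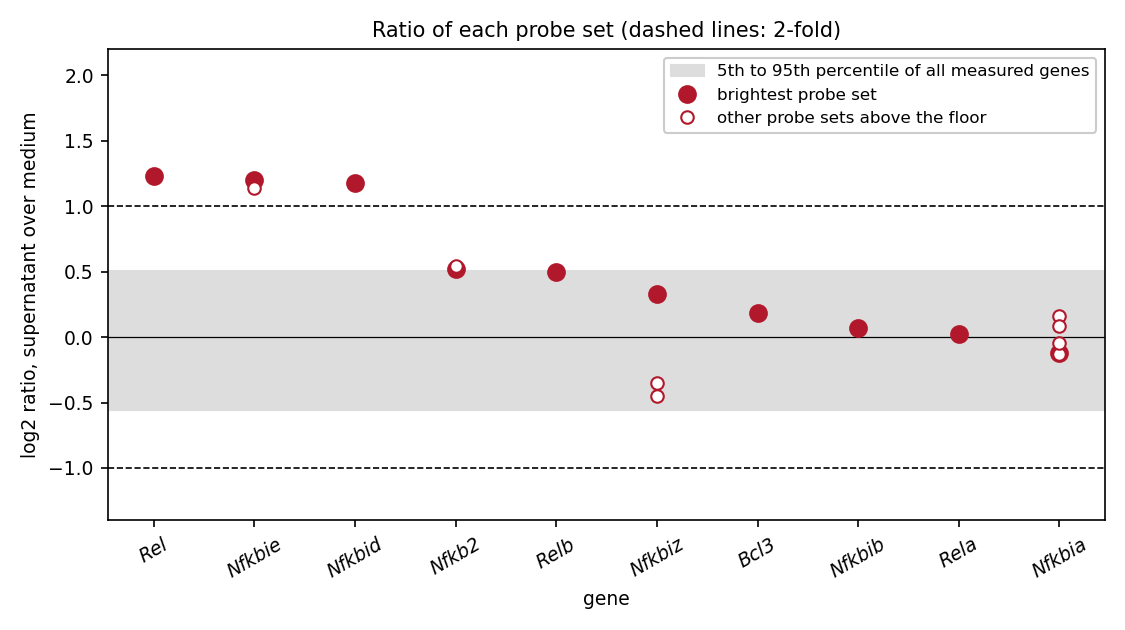
Ratio of each of the 18 probe sets above the floor, as the log2 of supernatant over medium, by gene, with the brightest probe set of each gene filled, dashed lines at 2-fold and a grey band from the 5th to the 95th percentile of all measured genes (-0.55 to 0.50). Rel, Nfkbie and Nfkbid lie above the upper dashed line, Nfkb2 and Relb at the edge of the band, and the 3 points of Nfkbiz on both sides of 0.

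In order of ratio the genes were Rel, Nfkbie, Nfkbid, Nfkb2, Relb, Nfkbiz, Bcl3, Nfkbib, Rela and Nfkbia. The log2 ratios of the first 3 lay between 1.18 and 1.23, and no order among them can be read. The widest step between neighbours, 0.65, separated Nfkbid from Nfkb2, which are also the genes just inside and just outside the threshold. The next widest was 0.17, between Relb and Nfkbiz. There is no replicate to set these steps against. Pairs of probe sets of the same gene, over 5196 genes, gave an SD of 0.25 for 1 reading, which covers no error between arrays or cultures. The log2 ratio had a wider SD of 0.36 over the 22998 probe sets that exceeded the floor with the supernatant and with medium. The step after Nfkbid was larger than either SD, 2.62 times the narrower one, and every other step was smaller than both. A step is a difference of 2 readings, which varies more than 1 reading does, so that multiple overstates its size against the spread. The 21 differences between 1 of the first 3 genes and 1 of the other 7 ran from 0.65 to 1.36. Those 3 were set apart from the rest because of their ratios, so the gap is a description and has no test.

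Set against all genes, Rel had a ratio that 63 of the 11977 measured genes exceeded, Nfkbie one that 70 exceeded and Nfkbid one that 75 exceeded. Nfkb2 was exceeded by 553 genes and Nfkbia by 8430. Over the 22172 measured single-gene probe sets, 0.974% reached 2-fold upward and 1.06% downward, against 4 and 0 of the 18 measured probe sets of the 10 genes. Among the 12751 probe sets with a mean signal from 100 to 2000, which include 13 that belong to the 10 genes and all 4 that were called, the share called higher was 0.925% and the SD of the log2 ratio was 0.35. The genes above the floor on both arrays with the ratio nearest to that of Rel were Fbxo10 (2.35-fold), Acod1 (2.34-fold) and Mapk11 (2.32-fold). With 2 arrays the ratio is all there is of a pattern, so nearness in it says nothing more of these genes.

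**Figure D3:**
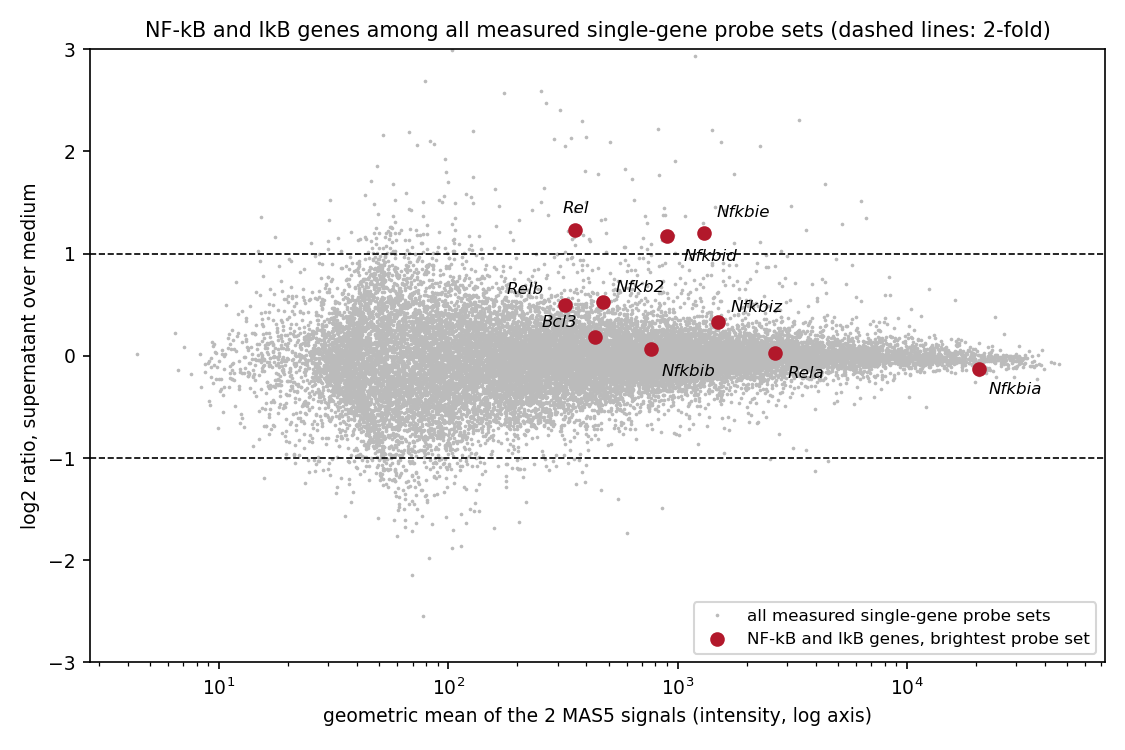
Log2 ratio, supernatant over medium, against the geometric mean of both MAS5 signals (intensity, log axis) for the measured single-gene probe sets (grey) and for the brightest probe set of each of the 10 genes (red), with dashed lines at 2-fold. Rel, Nfkbie and Nfkbid lie above nearly all grey points of their brightness, the other 7 lie between the dashed lines, and 16 grey points beyond a log2 ratio of 3 are not drawn.

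The measured kinases and adaptors that lie before NF-kB in the pathway showed no ratio of 2-fold. Of the 27 genes in the list of IKK and its activators 22 had a single-gene probe set. Chuk, Irak4, Ripk1, Ripk2 and Card9 had none under these names and were not read. All 22 were measured, 0 were called higher and 0 lower, and the median log2 ratio was 0.02. The highest were Tank, an adaptor of IKK-related kinases (4971 with the supernatant and 3825 with medium, 1.30-fold higher), and the kinases Map3k7 (453 and 379, 1.20-fold higher) and Map3k3 (1902 and 1597, 1.19-fold higher). Malt1, a paracaspase that acts before IKK in lymphocytes, read 257 with the supernatant and 395 with medium (1.54-fold lower), Tab1, a partner of the Map3k7 kinase, read 149 and 199, and Map3k14, the kinase of the alternative branch, 246 and 281. The direction of 3 of these rests on the choice of probe set, with log2 ratios of -0.38 for Map3k7 and 0.18 for Tab1 over the mean of all their probe sets, and of -0.11 for Tank with probe sets without a suffix, the letter that marks a probe set open to several transcripts or genes. The mean over probe sets, here and below, takes in those under the floor at their deposited signals, and can follow dim readings. Ikbkb, the IKK subunit that phosphorylates IkB-alpha, read 2294 with the supernatant and 2321 with medium.

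Of the 30 measured ubiquitin and adaptor regulators 1 was called higher and 0 lower, and the median log2 ratio was -0.04. The 1 was Zc3h12a, an RNase that degrades inflammatory mRNAs, which read 342 with the supernatant and 171 with medium. It stood on the 2-fold threshold itself, with a log2 ratio of 0.37 for the mean of its probe sets. Traf1, an adaptor of tumour necrosis factor receptors, read 875 with the supernatant and 592 with medium, 1.48-fold higher, and Birc3, a ubiquitin ligase of the same receptors, read 2751 and 2147, 1.28-fold higher. At the other end Traf5 (177 with the supernatant and 276 with medium), the deubiquitinase Otud7b (192 and 278) and Traf2 (359 and 480) were lower, by 1.56-fold, 1.45-fold and 1.34-fold, and for Otud7b the mean over its probe sets gave a log2 ratio of -0.03. Tnfaip3 encodes A20, a feedback inhibitor of NF-kB that is a target of it like Nfkbia. It read 675 with the supernatant and 794 with medium, a ratio of 0.85, and the mean over its probe sets gave a log2 ratio of -0.79. Of these feedback inhibitors Nfkbie was called higher, and Nfkbia, whose probe sets lay on both sides of 1, and Tnfaip3 were not.

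Of the 40 measured NF-kB target genes 10 were called higher (25.0%, against the 0.96% of all measured genes) and 1 lower. The median log2 ratio of the list was 0.16, and 23 of the 40 had a ratio above 1. Il1b, the gene of the cytokine interleukin-1 beta, read 1845 with the supernatant and 81.3 with medium, 22.7-fold higher. Ptgs2, the inducible cyclooxygenase, read 1486 with the supernatant and 163 with medium, 9.10-fold higher, a log2 ratio that came to 2.08 for the mean of its probe sets. Cxcl3, a chemokine that attracts neutrophils, read 425 with the supernatant and 71.7 with medium, 5.93-fold higher. The other 7 that were called higher, named here after their values were seen, were Cd83, Ccl2, Ccrl2, Csf1, Ccl3, Ier3 and Ccl4, in order of ratio. They ran from 4.26-fold for Cd83, a surface protein of activated antigen-presenting cells, to 2.17-fold for the chemokine Ccl4. Tnf, the gene of tumour necrosis factor and a classical target, read 251 with the supernatant and 503 with medium. It was 2.01-fold lower, and with any of 3 other scalings of the arrays just short of 2-fold. Vcam1 (45.8 with the supernatant and 78.3 with medium), an adhesion molecule, was 1.71-fold lower, though 0.50 on the log2 scale with probe sets without a suffix. Mmp9, a gelatinase, was at least 1.70-fold lower, with a supernatant signal under the floor (8.42) and 65.2 with medium. Cd40 (405 with the supernatant and 623 with medium), Fas (75.7 and 113) and Irf1 (1363 and 1681) were also lower without a call. Junb (1.83-fold), Cxcl2 (1.79-fold), Clec4e (1.65-fold), Marcksl1 (1.51-fold), Tlr2 (1.46-fold) and Cxcl1 (1.37-fold) were higher with the supernatant without a call. Icam1, Sod2 and Ccl5 stayed close to medium, with ratios of 0.96, 0.96 and 0.94. These uncalled genes were likewise named after their values were seen. The list of targets was chosen with earlier results of these data known, so its counts are a description and no test. Many of its genes answer to factors other than NF-kB as well, and which factor acted was not measured. The 13 housekeeping genes had log2 ratios from -0.12 for Pgk1 to 0.05 for Sdha, with Tbp and Polr2a next to the lower end and Hprt and Rplp0 next to the upper one.

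**Figure D4:**
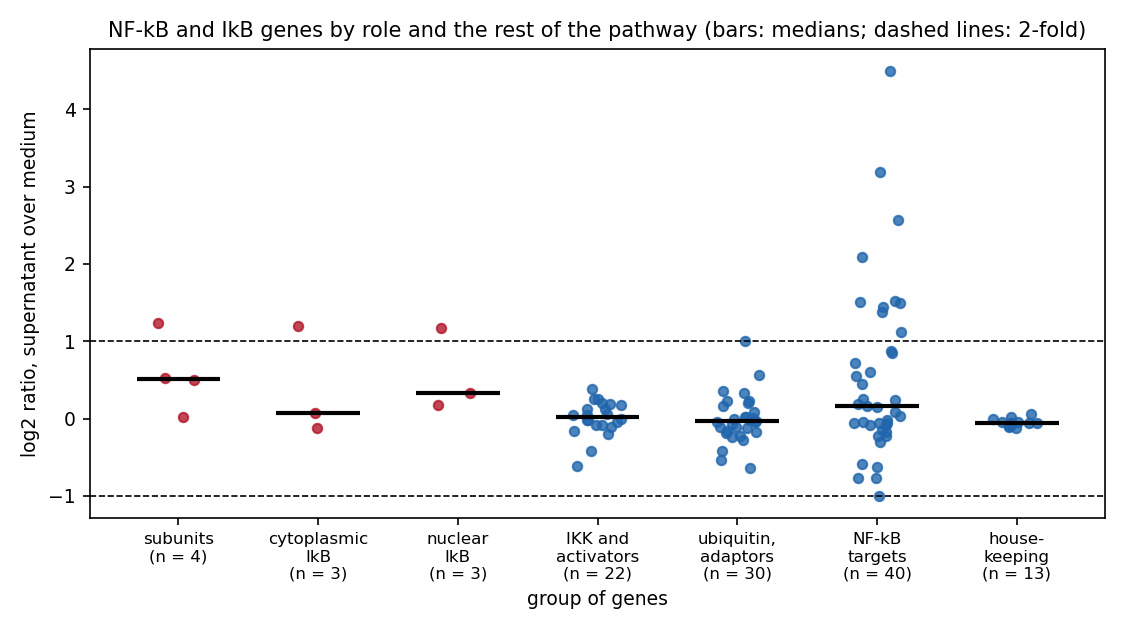
Ratio of the 10 genes by role (red) and of the measured genes of 4 lists (blue), as the log2 of supernatant over medium after flooring. Bars mark medians, and the dashed lines mark 2-fold. Each of the 3 red groups has 1 gene above the upper dashed line, none of the 22 genes of IKK and its activators lies outside the lines, and 10 of the 40 target genes lie above them.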

How the data were processed

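RNA of both conditions was labelled with biotin and hybridized to an Affymetrix array of mouse transcripts. The deposited values are linear MAS5 intensity signals of its probe sets, and both arrays have a mean of 500.0 after 2% of the 45101 probe sets is trimmed at each end. The submitters' processing notes name MAS5, and a genome build was not given in the sources used here. Probe sets were named from the platform annotation, which gave 34958 of them 1 gene and 932 several, and did not list 9211. Those with several genes were not used. A suffix of _a, _s or _x marks a probe set that may read several transcripts or genes.

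Ratios and counts were computed in Python 3.11.15 (pandas 2.3.3, numpy 2.4.6), the loess correction in statsmodels 0.14.6 and the plots in matplotlib 3.10.9, after the steps had been tested on simulated data. No test across conditions could be made on 1 array each, and precision is limited by this number. The members, the gene lists and the rule for named genes were chosen with earlier results of these data known. The rule takes every member, the 3 highest and 3 lowest genes of each list, Tnfaip3, Tnf, Il1b and Ikbkb, and the 3 genes nearest to Rel in ratio. Lists of markers of macrophages and T cells are given above. Of the B cell, dendritic cell, neutrophil and stromal lists, 3, 3, 4 and 1 genes exceeded the floor, and 0 of these reached 2-fold in either direction. Alternatives were 3 other scalings (median-centred, quantile and loess with a span of 30%), 4 treatments of dim signals and 2 choices of probe set. Those for the lists were added after seeing the data. Promoters were matched by symbol in a RefSeq table of build GRCm38.p6.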

Additional observations from a re-analysis of the deposited data

How the results depend on the processing

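Rel, Nfkbie and Nfkbid were each called higher under all alternatives that gave them a value, and 0 of the 10 genes was called lower under any. The log2 ratio ran from 1.11 to 1.28 for Rel, from 1.16 to 1.23 for Nfkbie and from 1.13 to 1.21 for Nfkbid. With only probe sets without a suffix, 7 of the 10 genes were left, and Nfkbib among them was under the floor. Nfkbie, Nfkb2 and Rela have none, so that 2 genes (Rel and Nfkbid) and 2 of 10 probe sets were called higher. Of the 4 probe sets that were called higher, 2 carry a suffix, both of Nfkbie. The count of probe sets called lower, 0 as reported, was 1 without a floor and also 1 with a floor at the receptor median of 10.0, which is the dim Nfkbib probe set. Of 87 log2 ratios of the 10 genes under the alternatives 85 moved by less than 0.25, the SD of 1 reading taken from pairs of probe sets. Many of these could not move. The treatments of dim signals other than the pseudocount left all of them unchanged, because the brightest probe sets lay above each floor. For Rel, Nfkbid, Relb and Bcl3 the choice of probe set changed nothing either. The calls and the count of 85 are therefore in part fixed by the alternatives used. Averaging the log2 signals of a gene's probe sets gave -0.65 for Nfkbib, where it takes in the dim probe set, and -0.16 for Nfkbiz.

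Among the lists, the count of NF-kB target genes called higher was 6 with only probe sets without a suffix, and that of target genes called lower was 0 when median-centred, quantile normalized or loess corrected, 4 without a floor and 3 with a floor at the receptor median. Ubiquitin and adaptor regulators called higher were 0 with the floor as a pseudocount and 0 with the mean of all probe sets. Over all genes, 115 were called higher and 101 lower as reported, 1865 and 2116 without a floor, 975 and 1158 with a floor at the receptor median, 77 and 27 when the floor was 2-fold higher, and 137 and 66 after quantile normalization. No paired analysis was possible because there was a single array for either condition. Single probe sets for Rel, Nfkbid, Relb, Bcl3 and Rela leave those ratios without a second reading on these arrays.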
